A study of Mus musculus with 6 samples.

Results

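The interferon-stimulated genes are transcripts that cells switch on when interferon binds its receptor, and 37 named genes of this kind were followed here in mammary tumours, out of 55487 gene rows in the deposited tables. Each was found by its exact symbol in the row name, and all 37 passed the filter on low counts, as did 17396 genes in all. The tumours came from MMTV-PyMT mice, in which the mouse mammary tumour virus promoter drives the polyoma virus middle T antigen in mammary epithelium, so every tumour of either group carries the same oncogene and a host with its own immune cells. The tested mice took DMHCA, a steroidal agonist of the liver X receptors (LXR), by mouth in gel cups without a break from 6 weeks of age, and 3 tumours of such mice were sequenced. The other 3 tumours came from mice given vehicle in the same way. The labels give no strain, sex or age at collection. Nor do they say whether each tumour had its own mouse, so p-values below reflect only how far these 6 samples scatter, part of which could be technical.

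Type I interferons act through a receptor whose kinases phosphorylate STAT2, which joins IRF9 in a complex that binds the interferon-stimulated response element in front of target genes. Among the products are sensors of foreign nucleic acid, enzymes that block viral replication, and IRF7, which in turn raises interferon production. Interferon gamma acts through a different receptor and through the gamma-activated site, and induces genes such as Irf1 and the guanylate-binding proteins. In tumours both arms are active in cancer cells and in infiltrating immune cells, and LXR agonists are known to restrain inflammatory genes in macrophages.

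The response element was looked for in the promoters of these genes. RefSeq promoters (GRCm38.p6, 250 bases before to 50 after the start site) were at hand for 28 of the 37 genes. The core of the element, searched on both strands as GAAA and GAAA with any 2 bases between them (TTTC and TTTC when read from the other strand), was found in 14 of these 28 genes (50%), against 3.99% of all 27025 genes in the promoter table. The gamma-activated site, TTCNNNGAA, was found in 7 of the 28 (25%), against 9.55% of all genes. The 5 stretches below, each from before the start site and written 5′ to 3′ on the strand of its gene, show the core in capitals. Ifit1, Oas3 and Bst2 are antiviral effectors, Isg15 belongs to the ISG15 system and Gbp7 is a guanylate-binding protein. Adjacent cores share bases where 1 capital run holds more than 1 of them.
Isg15, chr4:156200850-156200921, minus strand: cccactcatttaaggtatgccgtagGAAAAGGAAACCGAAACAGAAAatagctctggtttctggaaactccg
Ifit1, chr19:34640760-34640838, plus strand: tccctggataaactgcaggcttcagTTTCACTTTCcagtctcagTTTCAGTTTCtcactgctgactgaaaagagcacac
Oas3, chr5:120777700-120777759, minus strand: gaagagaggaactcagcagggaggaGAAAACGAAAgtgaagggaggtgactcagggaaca
Bst2, chr8:71537562-71537627, minus strand: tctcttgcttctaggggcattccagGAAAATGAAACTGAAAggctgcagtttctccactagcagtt
Gbp7, chr3:142530258-142530317, plus strand: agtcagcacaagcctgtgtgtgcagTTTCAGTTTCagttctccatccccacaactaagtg
Isg15 carries 3 overlapping cores, and Bst2 has 2 that overlap. The 14 genes with a core had a median log2 fold change (agonist over vehicle) of -0.55, and the 14 without one had a median of -0.40. Values ran from -1.14 to -0.21 with a core and, more widely, from -1.70 to 0.06 without one. Absence of a match says only that these letters are not in the window.

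Most of the 37 had a lower level with agonist on average, while the vehicle libraries differed widely among themselves. The log2 fold change was below 0 for 35 of 37 genes, against 50.7% of all genes tested, and the median over the 37 was -0.56, against -0.00486 for all genes tested. No gene of the 37 passed the threshold in edgeR's quasi-likelihood test with Benjamini-Hochberg adjustment (adjusted p under 0.05), and 0 of all 17396 genes did (0% called). At an unadjusted p under 0.05 there were 2 of the 37 (5.41%), beside 3.09% of all genes tested. Both were lower with agonist, a direction that 2.37% of all genes had at that p. A log2 fold change of -0.50 or less was found for 20 of the 37 (54.1%), beside 10.2% of all genes, and 0 of the 37 were higher in every agonist library, beside 3.02% of all genes. DESeq2 and limma-voom with quality weights also called 0 of the 37, with 8 (21.6%) and 12 (32.4%) of them at an unadjusted p under 0.05, beside 3.83% and 6.96% of all genes in the same fits. The second fit weighted each library by its estimated quality, from 0.49 for vehicle replicate 2 to 2.53 for agonist replicate 3. It thus gave vehicle replicate 2 the least say.

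Levels of single libraries show where the lower means come from. Vehicle replicate 1 was the highest of the 6 libraries for 31 of the 37 genes, a place it took for 21.8% of all genes tested, and agonist replicate 2 was the lowest for 26, against 13.5% of all genes. Vehicle replicate 3 was the highest for 4 genes (Oas3, Mx1, Ifit3 and Samd9l; 19% of all genes), agonist replicate 3 for Irf1 and Ifit2 (12.8% of all genes), and vehicle replicate 2 for 0 of the 37 (16.9% of all genes). As a deviation of each gene from its own mean over the 6 libraries, on a log2 scale of normalised counts (CPM, counts scaled to a common library size), the median over the 37 genes was 0.034, -0.54 and -0.24 in agonist replicates 1, 2 and 3. It was 0.75, -0.30 and 0.28 in vehicle replicates 1, 2 and 3. Vehicle replicate 2 thus lay between agonist replicates 2 and 3, and agonist replicate 1 lay below vehicle replicates 1 and 3 only.

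**Figure D1:**
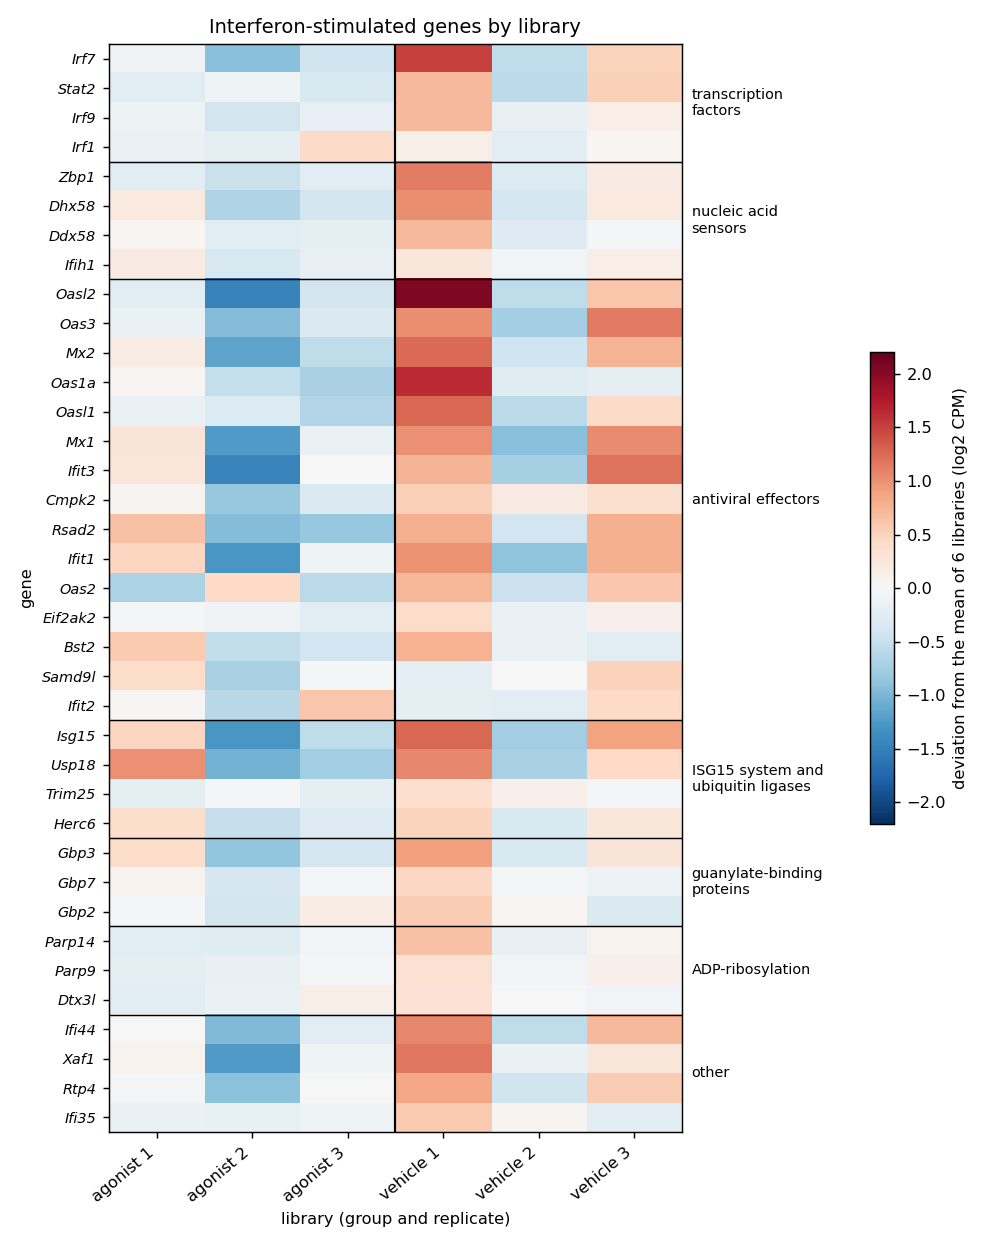
Deviation of each of the 37 genes (rows, grouped by role) from the average of its 6 log2 CPM values (prior count 2), with the 3 agonist libraries left of the 3 vehicle libraries. Vehicle replicate 1 is the highest for 31 genes and agonist replicate 2 the lowest for 26.

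The libraries hold between 36577451 and 42595799 expected counts. In bulk tumour RNA, fewer cells of a type and less RNA per cell cannot be told apart. The tumours carried luminal epithelial markers at similar sums, with Epcam, Krt8, Krt18 and Cdh1 together at 2119 to 2450 TPM (the authors' abundance scaled by transcript length) with agonist and 2234 to 2396 TPM with vehicle. Other cell types differed more between libraries. Adipocyte markers ran from 30.4 TPM in vehicle replicate 3 to 596 TPM in vehicle replicate 2. Myoepithelial markers ran from 30.3 TPM in vehicle replicate 3 to 273 TPM in agonist replicate 3.

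Among the transcription factors, Irf7 had the widest range. It had 69.0, 38.1 and 53.2 CPM in the agonist libraries, against 204, 49.4 and 102 CPM in the vehicle libraries. Vehicle replicates 1 and 3 were above all agonist libraries, and vehicle replicate 2 was within their range. The log2 fold change of Irf7 was -1.15 ± 0.51 (SE; 95% interval -2.38 to 0.08; unadjusted p = 0.0621, adjusted p = 0.99 by edgeR), and it was -0.50 without vehicle replicate 1. Irf9, the DNA-binding subunit of the complex with STAT2, had 55.1, 45.4 and 53.0 CPM with agonist, against 97.7, 53.4 and 66.0 CPM with vehicle. Its agonist libraries lay close together and 2 vehicle libraries exceeded them, with a log2 fold change of -0.50 ± 0.23. Stat2 averaged 45.8 ± 3.88 CPM with agonist and 66.6 ± 27.4 CPM with vehicle (SD, n = 3 each). Here vehicle replicate 2, at 35.5 CPM, was the lowest of all 6 libraries, so the vehicle range enclosed the agonist range. Irf1, a factor induced chiefly by interferon gamma, went apart from the other 3 with 55.5 ± 14.0 CPM with agonist and 53.2 ± 6.66 CPM with vehicle, a log2 fold change of 0.06 ± 0.20. Irf1 and Irf7 share exon positions with a gene on the opposite strand, and Irf9 with Rnf31 on the same strand. The median of the 4 factors was -0.52, and -0.26 without vehicle replicate 1.

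The nucleic acid sensors were below 0 in 4 of 4 cases, with a median log2 fold change of -0.48, and in 3 of 4 without vehicle replicate 1, with a median of -0.16. Zbp1, which senses left-handed nucleic acid and can start cell death, had 16.5, 14.0 and 16.5 CPM with agonist, against 43.0, 15.9 and 22.2 CPM with vehicle. The 3 agonist libraries were nearly level and vehicle replicate 2 sat among them. The log2 fold change of Zbp1 was -0.79 ± 0.35, and -0.29 without vehicle replicate 1. Ddx58, which encodes the RNA sensor RIG-I, had 71.0, 58.1 and 60.0 CPM with agonist, against 113, 56.4 and 67.5 CPM with vehicle. Only vehicle replicate 1 stood above the agonist libraries for Ddx58, and its log2 fold change of -0.33 ± 0.26 became 0.02 without that library. The related sensors Ifih1 (MDA5) and Dhx58 (LGP2) had log2 fold changes of -0.22 ± 0.18 and -0.63 ± 0.39, the second of them with a span that overlaps an antisense transcript.

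Of the 15 antiviral effectors, 14 had a log2 fold change below 0, with a median of -0.68 that was -0.35 without vehicle replicate 1, and Oasl2 had the lowest value of all 37 genes. Oasl2, an oligoadenylate synthetase-like protein, had 23.1, 9.86 and 20.6 CPM with agonist, against 113, 18.6 and 41.8 CPM with vehicle. Vehicle replicate 1 was 6.08 times as high as vehicle replicate 2, while the means of the groups differed by a log2 fold change of -1.70 ± 0.68 (95% interval -3.32 to -0.07; unadjusted p = 0.0435, adjusted p = 0.99 by edgeR). Without vehicle replicate 1 the log2 fold change of Oasl2 was -0.76. Oas3, which makes the second messenger that activates RNase L, had 2.55, 1.44 and 2.27 CPM with agonist, against 5.79, 1.68 and 6.34 CPM with vehicle. Both high vehicle libraries were above every agonist library, and the log2 fold change of -1.14 ± 0.54 stayed at -0.94 without vehicle replicate 1. Mx2, a dynamin-like antiviral GTPase, had 9.37, 3.73 and 5.66 CPM with agonist, against 19.9, 6.15 and 14.0 CPM with vehicle, again with vehicle replicate 2 inside the agonist range (log2 fold change -1.09 ± 0.49).

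Cmpk2, a mitochondrial nucleotide kinase encoded next to the antiviral gene Rsad2 on chromosome 12 (26469204 to 26479837, plus strand), was the exception in this group. It had 17.7, 9.49 and 13.6 CPM with agonist, against 24.4, 19.3 and 21.6 CPM with vehicle. The groups did not overlap, and Cmpk2 was the 1 gene of 37 (2.7%) lower in every agonist library, beside 4.22% of all genes tested. Its log2 fold change was -0.68 ± 0.25 (95% interval -1.26 to -0.10; unadjusted p = 0.0272, adjusted p = 0.99 by edgeR), and with libraries left out it ran from -0.92 to -0.48. The separation of Cmpk2 rests on the scale, since agonist replicate 1 had 6.30 TPM and vehicle replicate 2 had 5.98 TPM. Its neighbour Rsad2 (viperin) overlapped between the groups, with 11.4, 3.71 and 4.03 CPM with agonist, against 12.6, 5.40 and 12.6 CPM with vehicle.

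Bst2 (tetherin), which holds budding virus at the cell surface, was the most abundant of the 37 per length, at 82.8 ± 32.7 TPM with agonist and 102 ± 55.5 TPM with vehicle (SD, n = 3 each). It had 60.8, 27.9 and 30.2 CPM with agonist, against 69.4, 36.6 and 34.8 CPM with vehicle. Each group had 1 high library, replicate 1 in both, and the log2 fold change of -0.24 ± 0.40 was 0.15 without vehicle replicate 1. The remaining effectors were Ifit1, Ifit2, Ifit3, Oas1a, Oas2, Oasl1, Mx1, Eif2ak2 and Samd9l, with log2 fold changes between -1.05 (Oas1a) and 0.06 (Ifit2). The 3 Ifit genes differed: Ifit3 had -0.84 ± 0.59 and Ifit1 -0.64 ± 0.59, both with intervals across 0. Ifit2 had 11.8, 7.49 and 17.5 CPM with agonist, against 9.85, 9.66 and 15.6 CPM with vehicle, and all 3 vehicle libraries were within the agonist range. Reads of Ifit3 and Oas1a were split with other genes, since their expected counts were not whole in any of the 6 libraries, so their values are uncertain. The same holds for Irf1, Herc6, Parp9 and Dtx3l.

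**Figure D2:**
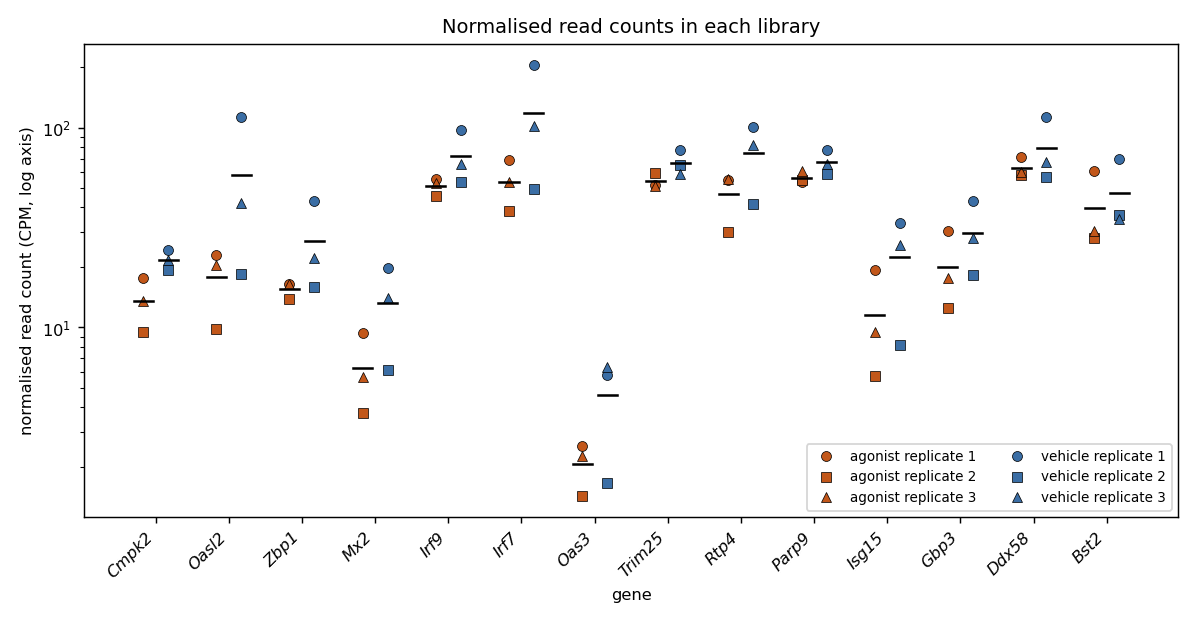
Normalised read counts (CPM, log axis) of the 14 genes described in every library, with agonist points left of vehicle points for each gene, marker shape for the replicate and a bar for the group mean. For Oasl2 the agonist libraries lie between 9.86 and 23.1 CPM and the vehicle libraries between 18.6 and 113 CPM, and Cmpk2 alone has groups that do not overlap.

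The ISG15 system attaches a ubiquitin-like protein to others, and its members are the modifier Isg15, the protease Usp18 that removes it and damps receptor signalling, the mouse ligase Herc6, and the RIG-I ligase Trim25. Isg15 had 19.3, 5.74 and 9.50 CPM with agonist, against 33.5, 8.20 and 25.8 CPM with vehicle. Agonist replicate 1 exceeded vehicle replicate 2, and the log2 fold change was -0.97 ± 0.62 (95% interval -2.46 to 0.52). Usp18 showed the same split by library with 17, 4.05 and 4.97 CPM with agonist, against 17.6, 5.14 and 11.5 CPM with vehicle. Its replicate 1 libraries of both groups were about level, and the log2 fold change was -0.40 ± 0.67. Leaving out vehicle replicate 1 gave 0.06 for Usp18, and leaving out agonist replicate 1 gave -1.35. Trim25 had the narrowest range among vehicle libraries in this group, 0.39 in log2 CPM against 2.02 for Isg15, with 51.5, 59.0 and 51.2 CPM with agonist, against 76.9, 64.7 and 58.7 CPM with vehicle. Agonist replicate 2 lay just above vehicle replicate 3 for Trim25, whose log2 fold change was -0.31 ± 0.15.

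The guanylate-binding proteins, GTPases that attack the membranes around intracellular pathogens, had log2 fold changes below 0 in 3 of 3 cases, with a median of -0.22, and in 2 of 3 without vehicle replicate 1, with a median of -0.025. Gbp3 had 30.3, 12.5 and 17.7 CPM with agonist, against 43.0, 18.3 and 27.9 CPM with vehicle. Vehicle replicates 2 and 3 of Gbp3 were within the agonist range, and its log2 fold change was -0.56 ± 0.41. Gbp2 and Gbp7 had log2 fold changes of -0.21 ± 0.26 and -0.22 ± 0.21, which were 0.05 and -0.02 without vehicle replicate 1. The 3 genes lie in a row on chromosome 3, from 142530342 (Gbp7) to 142638008 (Gbp2).

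Parp9, Parp14 and Dtx3l encode ADP-ribosylating proteins and a ubiquitin ligase, and their median log2 fold change was -0.26, with 3 of 3 below 0. Without vehicle replicate 1 the 3 were still below 0, with a median of -0.14. Parp9 had 53.3, 54.9 and 60.4 CPM with agonist, against 76.8, 58.8 and 65.7 CPM with vehicle. Vehicle replicate 2 fell within the agonist range, and the log2 fold change was -0.26 ± 0.15, or -0.15 without vehicle replicate 1. Parp9 and Dtx3l are transcribed away from each other on chromosome 16. Where they start, they share exon positions on opposite strands (Parp9 from 35938470, Dtx3l to 35939151), so their reads cannot be fully told apart. Of the remaining members, Rtp4, a receptor chaperone with antiviral activity, was the second most abundant per length at 57.0 ± 15.9 TPM with agonist and 92.4 ± 46.8 TPM with vehicle. Rtp4 had 54.7, 29.9 and 55.6 CPM with agonist, against 101, 41.2 and 82.2 CPM with vehicle, with vehicle replicate 2 again inside the agonist range. Ifi44, Xaf1 and Ifi35 had log2 fold changes of -0.91 ± 0.44, -0.85 ± 0.45 and -0.31 ± 0.21.

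**Figure D3:**
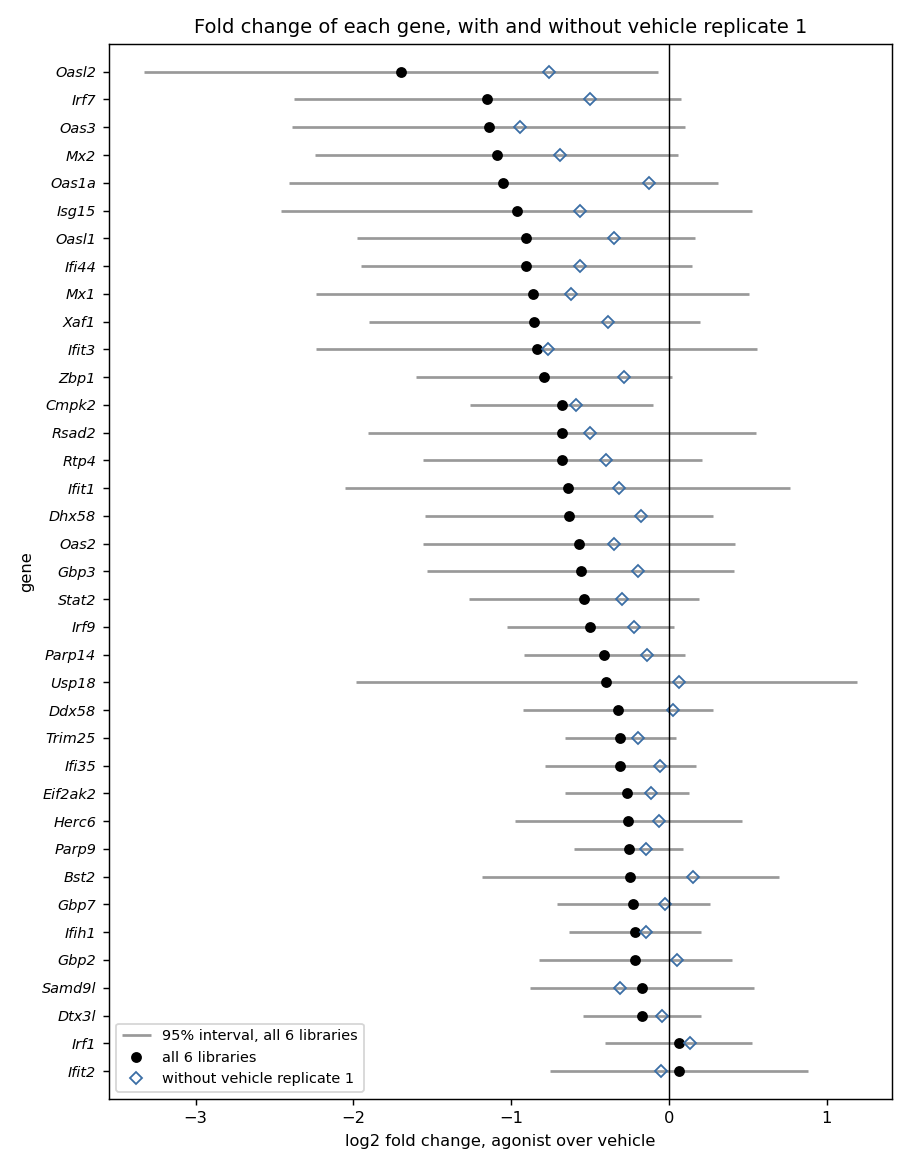
Log2 fold change (agonist over vehicle) of each of the 37 genes by edgeR, with its 95% interval as a bar, and open diamonds for the value without vehicle replicate 1. The intervals of 35 genes cross 0, those of Oasl2 and Cmpk2 do not, and without vehicle replicate 1 the points lie between -0.94 and 0.15.

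How far 1 library carries the difference can be read from the refits. Without vehicle replicate 1, 32 of the 37 log2 fold changes were below 0, the median was -0.22, and 21 genes had less than 0.5 of their value in the full fit. No gene was then at an unadjusted p under 0.05 (2.11% of all genes tested were). Without vehicle replicate 2, the median was -0.82 and all 37 were below 0. In that fit 20 of the 37 genes (54.1%) had an unadjusted p under 0.05, beside 13.6% of all genes, and 21 were lower in every agonist library, beside 15.9% of all genes. None of the 37 passed the adjusted threshold in any of the 6 refits. Without vehicle replicate 3 the median was -0.48, and without agonist replicates 1, 2 or 3 it was -0.81, -0.40 and -0.48. At an unadjusted p under 0.05 there were 6 of the 37 without agonist replicate 1 (2.49% of all genes), 1 without agonist replicate 2 (3.46%) and 0 without agonist replicate 3 (1.76%). With vehicle replicate 3 left out there were 2 (3.23%). Lower in every agonist library kept were 9 of the 37 without agonist replicate 1 (7.84% of all genes), 3 without agonist replicate 2 (10.6%) and 4 without agonist replicate 3 (6.87%). That count was 1 without vehicle replicate 1 (6.71% of all genes) and 3 without vehicle replicate 3 (8.3%). The median was thus below 0 whichever library was left out, and it moved furthest without vehicle replicate 1, with shifts of similar size to each other without vehicle replicate 2 and without agonist replicate 1.

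**Figure D4:**
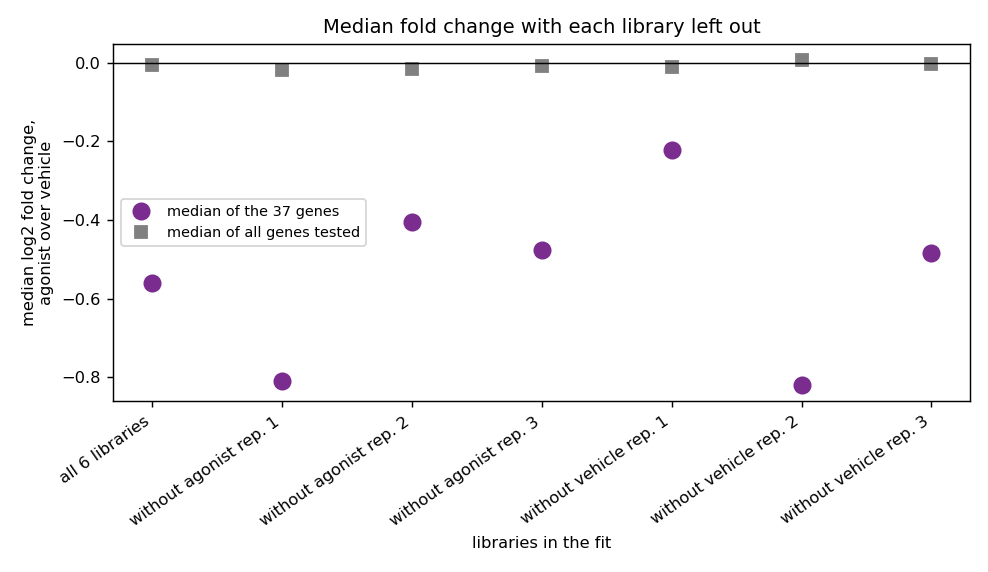
Median log2 fold change (agonist over vehicle) of the 37 genes and of all genes tested, in the fit of all 6 libraries and in the 6 fits that leave out 1 library each. The median of the 37 genes runs from -0.82 without vehicle replicate 2 to -0.22 without vehicle replicate 1, while the median of all genes stays near 0.

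The spread inside the vehicle group was wider than the difference between the group means, in log2 CPM, for 36 of the 37 genes, beside 90.9% of all genes tested. The median range among the 3 vehicle libraries was 1.22 over the 37 genes, against a median difference of group means of 0.56. Vehicle replicate 1 was at least 2-fold above vehicle replicate 2 for 21 of the 37 (56.8%), a ratio reached by 10.1% of all genes tested, with 1 library on each side. Vehicle replicate 3 was at least 2-fold above vehicle replicate 2 for 14 of the 37 (37.8%), beside 9.11% of all genes. With agonist, replicate 1 was at least 2-fold above replicate 2 for 12 of the 37 (32.4%), beside 8.37% of all genes. Set against the 3 agonist libraries, vehicle replicate 1 was above all of them for 34 genes, vehicle replicate 3 for 23 and vehicle replicate 2 for 3, where the shares among all genes were 30.6%, 29.4% and 25%.

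Upstream of these genes, the ligands were barely detected and no receptor or signalling gene was called. Of 18 interferon ligand genes, 13 had no read in any library and none had enough to be tested. Ifnb1, the ligand for type I responses, had 0, 1 and 0 reads with agonist, against 0, 0 and 5 reads with vehicle, too few to read a difference at this depth. Ifng had 1, 2 and 3 reads with agonist, against 3, 0 and 1 with vehicle. Of 16 receptor and signalling genes, all tested, 8 had a log2 fold change above 0 and 8 below, with a median of -0.00184 and 0 called. Among the smallest unadjusted p were those of Ifnlr1 (log2 fold change -0.49 ± 0.30), the receptor chain for interferon lambda, and the kinase Tyk2 (-0.27 ± 0.17). Of 13 genes that lead to interferon production, 9 were below 0 (7 without vehicle replicate 1) and 0 were called, among them Ticam1, the adaptor of Tlr3, which had 15.5, 22.2 and 16.0 CPM with agonist, against 27.4, 24.5 and 24.4 CPM with vehicle. Ticam1 did not overlap between the groups on CPM (log2 fold change -0.51 ± 0.19; unadjusted p = 0.0288, adjusted p = 0.99 by edgeR). It was the 1 gene of these 13 lower in every agonist library, beside 4.22% of all genes tested. On TPM the groups of Ticam1 overlapped, with agonist replicate 2 above vehicle replicate 2. Tlr3 (0.24 ± 0.16) and Tlr9 (-0.88 ± 0.68) came next by unadjusted p.

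A separate list of 65 further interferon-stimulated genes went the same way to a smaller degree. Of its 63 tested genes, 48 were below 0 and 15 above, with a median log2 fold change of -0.27 and 0 called, and 3 had an unadjusted p under 0.05, a share near the 3.09% of all genes. Without vehicle replicate 1, 41 of 64 tested genes were below 0 and the median was -0.11. Oas1g, a relative of Oas1a whose counts were not whole in any library, had 6.96, 4.30 and 4.13 CPM with agonist, against 33.2, 5.03 and 12.1 CPM with vehicle (log2 fold change -1.71 ± 0.66). Phf11d (-0.73 ± 0.29) and Parp10 (-0.76 ± 0.32), an ADP-ribosyltransferase, were the other 2. Vehicle replicate 1 was the highest library for 34 of the 63 genes (21.8% of all genes), and 0 of them were lower in every agonist library (4.22% of all genes).

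Markers of immune cells were read beside these genes because such cells express them strongly. The 5 general leukocyte markers (Ptprc, Coro1a, Laptm5, Cd53 and Cd48), all detected, summed to 59.8, 68.2 and 68.6 TPM with agonist, against 65.2, 92.7 and 26.6 TPM with vehicle. Their order among the vehicle libraries was not that of the interferon-stimulated genes: vehicle replicate 2, low in the 37 genes, had the most, and vehicle replicate 3, high in them, had the least. The 6 macrophage markers summed to 294.8 to 353.5 TPM with agonist and 116.5 to 434.8 TPM with vehicle, in the same order of vehicle libraries as the leukocyte list. T cell markers were scarce, with Cd3e, Cd3d, Cd4 and Cd8a under 1 TPM in every library, and Cd3g and Trac at most 2.15 and 1.02 TPM. The 6 T cell markers summed to 1.76, 1.99 and 4.69 TPM with agonist, against 4.03, 1.98 and 2.85 TPM with vehicle. The order of these small sums was that of the 37 genes among the vehicle libraries, but not among the agonist libraries. In vehicle replicates 1, 2 and 3, neutrophil markers summed to 73.8, 72.3 and 23.1 TPM, and conventional dendritic cell markers to 2.81, 7.02 and 1.96 TPM. NK cell markers summed to 1.64, 1.67 and 1.66 TPM there, and B and plasma cell markers to 0.95, 1.39 and 1.37 TPM. None of these further lists had the order of the 37 genes among the vehicle libraries. Of the plasmacytoid dendritic cell list, Siglech was at 0.11 to 0.24 TPM in every library, and the 4 markers other than Bst2 summed to 5.07 to 8.48 TPM with agonist and 3.70 to 6.63 TPM with vehicle, nearly all of it from Cox6a2. Fibroblast markers summed to 663.6 to 906.8 TPM with agonist and to 496.4, 1187 and 113.3 TPM in vehicle replicates 1, 2 and 3. Their part in the difference of the 37 genes was not tested.

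**Figure D5:**
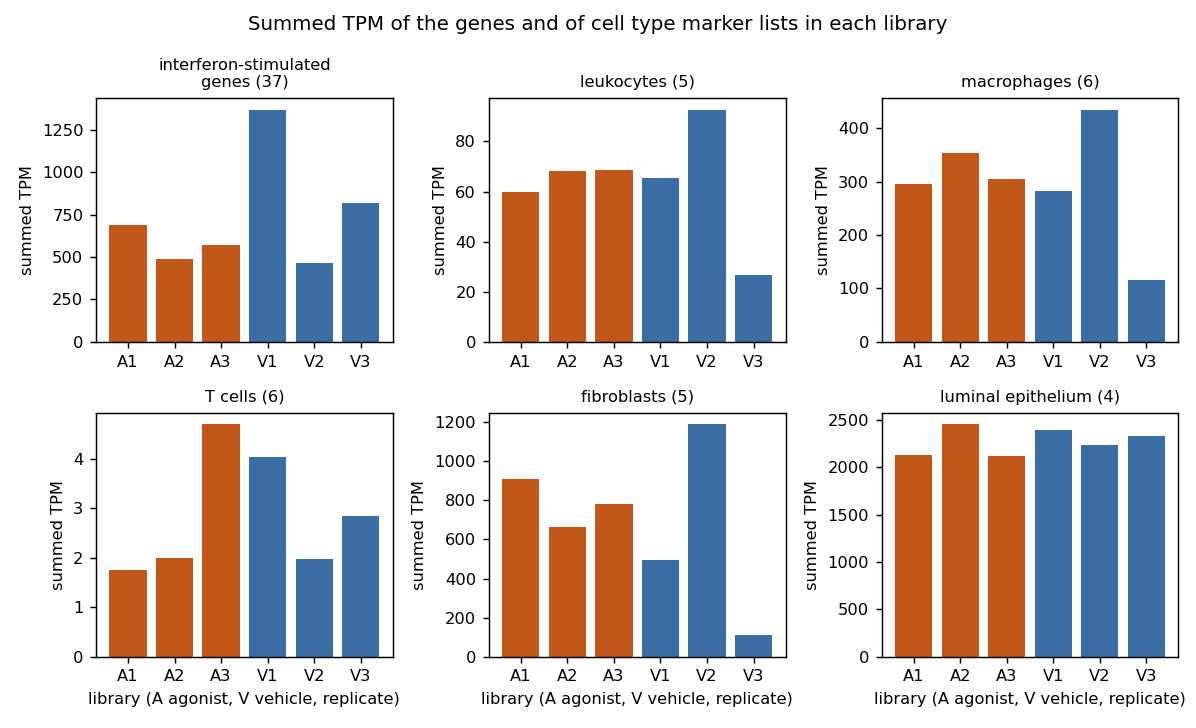
Summed TPM in each library (A agonist, V vehicle, with the replicate number) of the 37 interferon-stimulated genes and of 5 marker lists, with the number of genes in brackets. The 37 genes sum to 687, 491 and 573 TPM with agonist and to 1368, 463 and 817 TPM with vehicle, while leukocyte, macrophage and fibroblast markers are highest in vehicle replicate 2 and lowest in vehicle replicate 3.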

How the data were processed

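RNA from 6 mammary tumours was sequenced, and each library has its own table. The authors' RSEM expected counts, estimated reads per gene that need not be whole, were deposited beside TPM, which the authors' RSEM run scales by transcript length. The submitters' processing notes name cutadapt 3.5, STAR 2.7.9a and RSEM 1.3.1 with the build GRCm38, while annotation release and strand setting are not given. FPKM was not used.

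Expected counts were rounded and tested with edgeR 4.0.16 (TMM, filterByExpr at a minimum count of 10, robust quasi-likelihood F test of group, no covariates). CPM use the TMM-scaled sum over tested genes as library size, at which 3 counts are 0.0684 to 0.0813 CPM, a floor for counting error alone. SE was derived from the log2 fold change and its F statistic. Alternatives were other scalings and filters, a replicate block, each library left out, DESeq2 1.42.0, limma 3.58.1 (voom with quality weights, and trend on TPM). The edgeR step was tested on simulated data.

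The members and gene lists were chosen with earlier results of these data known. Values in every library are given for the 8 members with the smallest unadjusted p and the most abundant of each role group by TPM. For other lists the 3 genes with the smallest unadjusted p are named, apart from 1 that is not reported here, and Ifnb1, Ifng, Rsad2, Stat2, Irf1, Usp18 and Ifit2 were chosen for values after these were seen. Positions are from GENCODE M21 on GRCm38, where all 37 IDs were found. Exon positions of 15 of the 37 are shared with another annotated gene, and 14 had an expected count that was not whole in at least 1 library.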

Additional observations from a re-analysis of the deposited data

How the results depend on the processing

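No member passed the adjusted threshold under any alternative run. Of 592 values of single genes under alternatives, 581 kept their direction and 11 reversed, all 11 with 1 library left out. DESeq2 called 4 genes of all tested, against 0 by edgeR, and 0 of these were among the 37. On TPM with a pseudocount of 1 or 0.1, 0 of the 37 genes were lower in every agonist library (1.45% of all genes), against 1 on CPM (4.22% of all genes). With libraries left out that count ran from 1 to 21, the median log2 fold change of the 37 from -0.82 to -0.22, and the number below 0 from 32 to 37. The genes that reversed ran from -0.28 to 0.33 (Ifit2), -0.17 to 0.17 (Irf1), -1.35 to 0.062 (Usp18), -0.40 to 0.053 (Gbp2), -0.70 to 0.15 (Bst2), -0.52 to 0.025 (Ddx58) and -0.46 to 0.074 (Samd9l). With the replicate number as a block the median was -0.57 and 15 of the 37 (40.5%) had an unadjusted p under 0.05, beside 2.81% of all genes, with 0 called. Deviations of same-numbered libraries correlated at 0.17, 0.038 and 0.063 over all genes tested, and those of differently numbered libraries at -0.11 to 0.055. The labels do not say whether the numbers pair the samples, and this was not tested. Upper-quartile scaling gave a median of -0.52, limma-voom with quality weights -0.74, and TPM with a pseudocount of 1 -0.44, each with 35 of the 37 below 0.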
